A study of Oryza sativa with 6 samples.

Results

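The GABA shunt genes of the rice embryo were examined in NIL-D (EG), the near-isogenic line with a giant embryo, and in NIL-X (CG), its matching line with a normal embryo. They were taken as all genes whose deposited protein annotation names a glutamate decarboxylase or a gamma-aminobutyrate transaminase. Of the 61955 genes in the table, 7 met this rule, 6 as glutamate decarboxylases and 1 as a GABA transaminase. All 6 glutamate decarboxylase genes also carry the same KEGG ortholog, and 5 of them hold the pyridoxal-dependent decarboxylase domain. The rule reads annotation text alone. By identifier, 4 of the 7 matched a gene of the RefSeq table, which was used for names alone.

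Glutamate decarboxylase removes a carboxyl group from glutamate in the cytosol and releases gamma-aminobutyric acid (GABA), a free amino acid that accumulates in rice embryos. Many plant glutamate decarboxylases are activated by calcium-bound calmodulin. GABA transaminase passes the amino group of GABA to pyruvate or glyoxylate in the mitochondrion, and succinic semialdehyde dehydrogenase oxidizes the product to succinate, which enters the citrate cycle. The route from glutamate through GABA to succinate is called a shunt because it bypasses a part of that cycle.

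NIL-D carries the GIANT EMBRYO (GE) allele of the cultivar Dapeimi, and NIL-X the matching segment of the other parental cultivar, both lines having been selfed for several generations after the cross. The sample labels give the genotype of NIL-D as CMP-/- and that of NIL-X as wild type. RNA came from embryos of field-grown plants at about 15 days after flowering, with 3 samples per line, 1 from each of 3 field plots that held both lines. Differences that the lines may hold at other loci cannot be told apart from that at GE. Expression was deposited as TPM, a measure of relative transcript abundance, which is scaled for gene length and has the same total in each library. The study states the total of clean data and a minimum per sample, but not the reads behind each TPM value. No limit of detection was estimated for a gene listed at 0.

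The 7 oleosin genes, which coat the oil bodies of embryo and aleurone cells, were all expressed and summed to between 34334 and 37928 TPM in the 6 samples. The 17 prolamins, storage proteins of the endosperm, summed to between 3053 and 6998 TPM in NIL-D and between 4939 and 12900 TPM in NIL-X, lowest in NIL-D replicate 3. The 20 genes annotated as glutelins, also storage proteins of the endosperm, summed to 34777 to 38915 TPM across NIL-D against 35473 to 41447 TPM across NIL-X, and within NIL-D they were highest in replicate 3. The most highly expressed of them, OsZS_08G0025200, has cocosin 1 of coconut as its closest Swiss-Prot protein, and whether it is an endosperm gene was not tested. The 13 chlorophyll a-b binding proteins summed to 4.34 to 5.53 TPM across NIL-D against 9.65 to 11.15 TPM across NIL-X, with 2 of them at 0 throughout and 3 at a mean of at least 0.5 TPM. In whole embryos, fewer cells of a type and less RNA per cell cannot be told apart. Whether the embryo samples also held RNA of the endosperm was not tested. NIL-D replicate 3 stood furthest from its line, with a Pearson's r across genes of 0.964 and 0.974 with NIL-D replicates 1 and 2, which had 0.994 with each other. The gene that carries the number given by the study for GE, OsZS_07G0416900, is annotated as a cytosolic sulfotransferase and stayed between 0.04 and 0.68 TPM, so it gave no check of the lines. OsZS_07G0414800, a cytochrome P450 of the CYP78A family to which GE belongs, measured 5.26, 5.01 and 0.99 TPM in the NIL-D embryos (replicates 1 to 3) and between 3.3 and 3.73 TPM in NIL-X, with NIL-D replicate 3 apart from the other samples.

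Transcripts of the glutamate decarboxylase and GABA transaminase genes were abundant in the embryo samples of both lines and came almost entirely from 3 genes. OsZS_08G0385400 and OsZS_03G0118600, both glutamate decarboxylases, together held between 99.13% and 99.71% of all glutamate decarboxylase TPM in every sample. The single gene that the rule found as a GABA transaminase, OsZS_04G0485800, averaged 122 TPM across NIL-D against 121 TPM across NIL-X. None of the 4 genes with a mean of at least 0.5 TPM, the minimum for testing, was called different between the lines. A call required a limma adjusted p-value under 0.05 together with a change of 1 or more on the log2 scale, up or down, and 0.642% of all 21500 tested genes were called. At an unadjusted p-value below 0.05 the count was 1 of the 4 genes, against 15.6% of all tested genes.

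**Figure D1:**
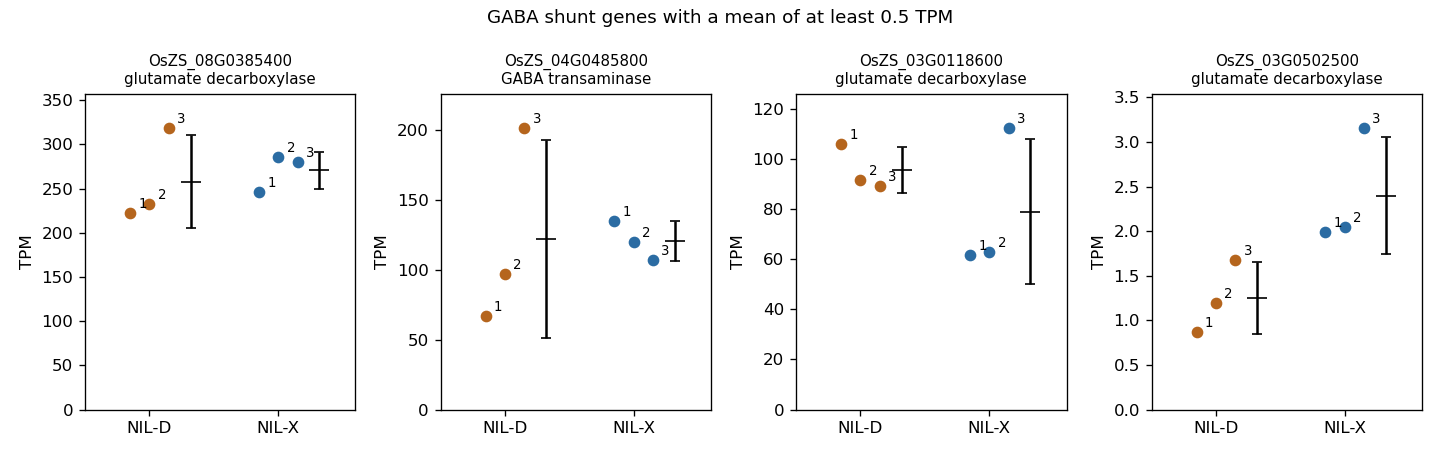
TPM of the 4 tested GABA shunt genes in each sample, with a vertical axis from 0 in every panel. Points are samples with their replicate number, and bars give the mean and SD of 3 samples per line; in OsZS_03G0502500 alone the lines do not overlap as deposited, though they do after median-ratio rescaling, with 0.87 to 1.68 TPM in NIL-D and 1.99 to 3.16 TPM in NIL-X.

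OsZS_08G0385400 was the most highly expressed glutamate decarboxylase in every sample. The gene lies on chromosome 8 of the ZS97RS3 assembly, is 2560 bp long, and has the locus Os08g0465800 of Nipponbare rice in its protein hit. It measured 222.63, 232.18 and 318.76 TPM in the NIL-D embryos (replicates 1 to 3) against 246.54, 285.27 and 280.17 TPM in the NIL-X embryos. The NIL-X values lay inside the range of NIL-D, whose highest value was that of replicate 3. NIL-D averaged 258 ± 53.0 TPM, whereas NIL-X averaged 271 ± 21.0 TPM (SD, 3 samples each), and the gene ranked between 329 and 616 among all genes of a sample. Its log2 fold change on the scale of TPM + 1 was -0.09 (SE 0.18, limma adjusted p = 0.837), with a 95% interval from -0.51 to 0.33. This interval corresponds to between 0.704 and 1.26 times the level of NIL-X, so a doubling or halving in NIL-D lies outside it.

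OsZS_03G0118600, the other abundant glutamate decarboxylase, lies on chromosome 3 and is 2189 bp long. Its closest Swiss-Prot protein is glutamate decarboxylase 1 of Arabidopsis thaliana. It measured 106.05, 91.54 and 89.23 TPM in the NIL-D embryos (replicates 1 to 3) against 61.64, 62.76 and 112.35 TPM in the NIL-X embryos. NIL-X replicate 3 held the highest value of all 6 samples, while the other NIL-X samples lay below all of NIL-D. NIL-D averaged 95.6 ± 9.12 TPM, whereas NIL-X averaged 78.9 ± 29.0 TPM (SD, 3 samples each). The log2 difference came to 0.33 ± 0.25 (SE, limma adjusted p 0.549, 95% interval -0.26 to 0.92). Without NIL-X replicate 3 it was 0.61 (adjusted p = 0.238) and the lines no longer overlapped, but the gene was not called.

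The share of glutamate decarboxylase TPM that came from OsZS_03G0118600 spanned 21.8% to 32.2% across NIL-D against 17.9% to 28.4% across NIL-X. In NIL-D it was lowest in replicate 3, and in NIL-X it was highest in replicate 3, so the ranges of the lines overlapped. OsZS_08G0385400 took most of the remainder, with 67.5% at the lowest (NIL-D replicate 1) and 81.4% at the highest (NIL-X replicate 2).

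OsZS_03G0502500 was a further glutamate decarboxylase with far lower levels, and the single gene of the 4 whose deposited values kept the lines apart. It lies on chromosome 3, is 2276 bp long, and its protein hit is glutamate decarboxylase 1 of Nipponbare rice (Os03g0720300). It measured 0.87, 1.2 and 1.68 TPM in the NIL-D embryos (replicates 1 to 3) against 1.99, 2.05 and 3.16 TPM in the NIL-X embryos. All 3 NIL-D values were thus below all 3 NIL-X values. NIL-D averaged 1.25 ± 0.41 TPM, whereas NIL-X averaged 2.40 ± 0.66 TPM (SD, 3 samples each). The log2 fold change was -0.59 (SE 0.23, 95% interval -1.15 to -0.04) with a limma p-value of 0.0385 before and 0.297 after adjustment over all tested genes. With a pseudocount of 0.1 in place of 1 it was -0.90 (adjusted p = 0.309), since adding 1 shrinks the change of a gene at this level.

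Lines without overlap were common in these data, with 24.3% of all tested genes in either direction and 19.7% lower in NIL-D, against 1 of the 4 GABA shunt genes. The 4 genes had a median log2 difference of -0.11, beside -0.15 for the tested genes as a whole. Rescaling the samples by median ratios took the latter to 0.00, and the lines then overlapped in all 4 genes, including OsZS_03G0502500, whose log2 difference became -0.48. The median of the 4 genes then stood at 0.07, with 1 of them below 0. The summed chlorophyll a-b binding proteins likewise did not overlap between the lines and were lower in NIL-D, and their part in the difference of OsZS_03G0502500 was not tested.

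The remaining 3 glutamate decarboxylase genes were at or near 0 TPM in both lines and were not tested. OsZS_04G0333700 (2897 bp) spanned 0.02 to 0.13 TPM across NIL-D against 0.02 to 0.23 TPM across NIL-X. OsZS_04G0334000 (2523 bp) ran from 0.05 to 0.14 TPM in both lines, and its closest Swiss-Prot protein is glutamate decarboxylase 4 of Arabidopsis thaliana. These genes lie close together on chromosome 4, with 2 listed genes between their numbers. OsZS_05G0328400 is listed at 0 TPM in all 6 samples, is 477 bp long, and is the glutamate decarboxylase gene for which no decarboxylase domain is given. Reads shared between related glutamate decarboxylase genes could be divided among them by the estimation of expression, and this was not tested.

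OsZS_04G0485800, annotated as the probable mitochondrial gamma-aminobutyrate transaminase 2 (Os04g0614500), varied more among the NIL-D samples than between the lines. It lies on chromosome 4 and is 4054 bp long. It measured 66.87, 97.31 and 201.9 TPM in the NIL-D embryos (replicates 1 to 3) against 135.0, 120.4 and 106.96 TPM in the NIL-X embryos. The lowest and the highest of the 6 values were both from NIL-D and differed 3.02-fold, while the NIL-X values differed 1.26-fold. NIL-D averaged 122 ± 70.8 TPM, whereas NIL-X averaged 121 ± 14.0 TPM (SD, 3 samples each). The log2 difference came to -0.13 ± 0.38 (SE, limma adjusted p 0.889), and its 95% interval from -1.04 to 0.78 was the widest of the 4 genes. This interval corresponds to between 0.486 and 1.71 times the level of NIL-X, so a halving in NIL-D lies within it.

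The comparison of the transaminase rested on single NIL-D samples. Without NIL-D replicate 3, its log2 difference came to -0.57 ± 0.19 (SE, limma adjusted p 0.131, 95% interval -1.03 to -0.11), and both remaining NIL-D values lay below all 3 of NIL-X. Without NIL-D replicate 1, it was 0.22 (adjusted p = 0.773). Neither fit called the gene, although leaving out NIL-D replicate 3 raised the calls over all genes from 138 to 611.

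**Figure D2:**
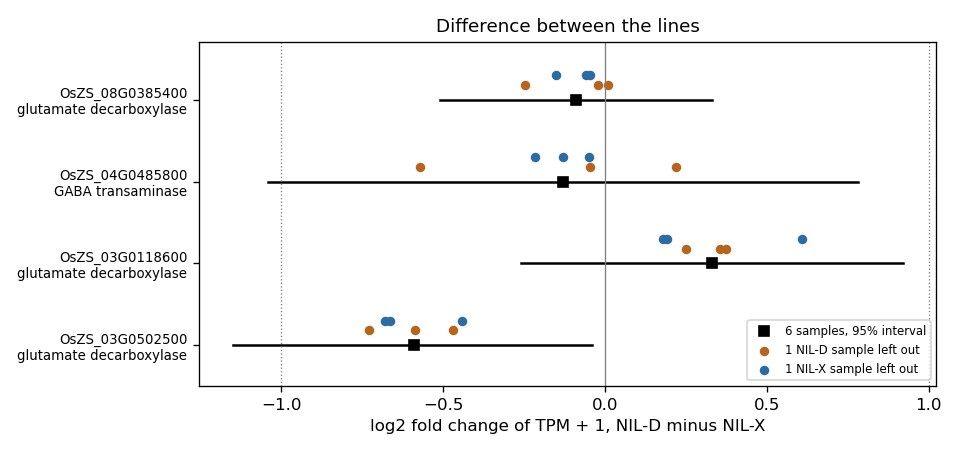
Log2 fold change of TPM + 1 (NIL-D minus NIL-X, horizontal axis) for the 4 tested GABA shunt genes. Black squares with lines are the fits of 6 samples with their 95% intervals, coloured points are fits with 1 sample left out, and dotted lines mark the limit for a call at -1 and 1; the transaminase OsZS_04G0485800 moved from -0.57 to 0.22.

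The order of the levels, which TPM allows to be compared between genes, was partly resolved. OsZS_08G0385400 lay above the other 3 tested genes in every sample of both lines. OsZS_04G0485800 and OsZS_03G0118600 followed and overlapped with each other, in NIL-D (66.87 to 201.9 against 89.23 to 106.05 TPM) and in NIL-X (106.96 to 135.0 against 61.64 to 112.35 TPM). OsZS_03G0502500 came next in every sample and lay above the 3 untested genes.

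The summed level of the 6 glutamate decarboxylase genes averaged 355 ± 47.7 TPM across NIL-D against 352 ± 42.8 TPM across NIL-X (SD, 3 samples each). The sum was highest in NIL-D replicate 3, at 409.9 TPM, and lowest in NIL-X replicate 1, at 310.4 TPM. Divided by the TPM of the transaminase, it was 4.93, 3.34 and 2.03 in NIL-D replicates 1 to 3 and 2.3, 2.91 and 3.7 in NIL-X replicates 1 to 3. Transcripts of the 6 glutamate decarboxylase genes thus outnumbered those of this transaminase gene in all 6 samples. The ratios of NIL-X lay inside the range of NIL-D. Whether the annotation rule missed other GABA transaminase genes was not tested, so the ratio holds for the listed genes alone.

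**Figure D3:**
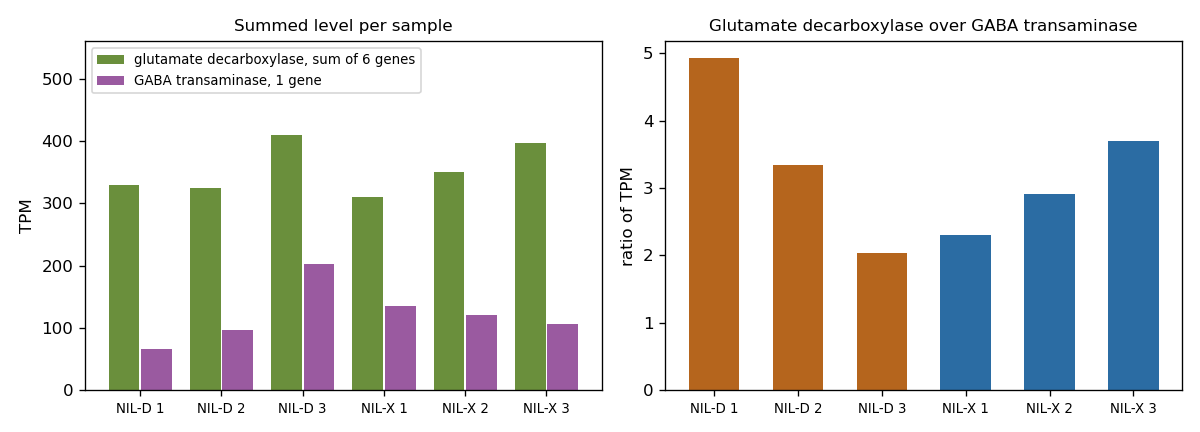
Left, summed TPM of the 6 glutamate decarboxylase genes and TPM of the GABA transaminase per sample. Right, the ratio of these values per sample, lowest at 2.03 (NIL-D replicate 3) and highest at 4.93 (NIL-D replicate 1), with NIL-D in brown and NIL-X in blue.

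Genes with a like pattern were sought by the root mean square difference of log2(TPM + 1), centred on each gene's mean over the 6 samples. For OsZS_08G0385400, whose own centred values had a root mean square of 0.181, 150 tested genes lay within 0.1. The closest were MSTRG.19699, annotated as a WAT1-related protein (0.044), the GDSL esterase/lipase OsZS_05G0051500 (0.048) and the uncharacterized gene OsZS_04G0288100 (0.053).

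For OsZS_04G0485800, whose own root mean square was 0.478, 4 tested genes lay within 0.1. The closest were OsZS_04G0383700 (0.075), which has no descriptive name, the putative F-box protein OsZS_09G0188900 (0.082) and OsZS_10G0321800 (0.088), which has no protein hit. OsZS_04G0383700 measured 25.77, 38.81 and 80.55 TPM in the NIL-D embryos (replicates 1 to 3) against 54.41, 41.67 and 42.83 TPM in the NIL-X embryos. Like the transaminase, it had its lowest and its highest value in NIL-D. It was picked by likeness over the same 6 samples, so this is no separate result.

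The genes around the shunt were read from 9 lists set by annotation, for enzymes that make or use glutamate, other routes to GABA, its transport and its targets. Of their 64 genes, 40 were tested and 1 was called, lower in NIL-D, as were 0.377% of all tested genes. At an unadjusted p-value below 0.05 the limma test had 11 of the 40, beside 15.6% of all tested genes. The values of the lines did not overlap in 14 of the 40 genes, all 14 lower in NIL-D, beside 24.3% of all tested genes in either direction and 19.7% lower. The log2 fold change was below 0 in 33 genes (82.5%), as in 69.9% of all tested genes, and its median was -0.30 against -0.15 over all tested genes. After median-ratio rescaling, the lines did not overlap in 13 list genes, of which 9 were lower and 4 higher in NIL-D, beside 20.6% of all tested genes in either direction and 9.83% lower. With that scaling 24 of the 40 genes (60%) lay below 0, beside 49.9% of all tested genes. The chlorophyll a-b binding proteins were likewise lower in NIL-D, and their part in these counts was not tested. The lists follow annotation text and also caught some other enzymes, such as the folylpolyglutamate synthases under glutamate synthase.

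The step after the transaminase is taken by succinic semialdehyde dehydrogenase. OsZS_02G0072000, annotated as the mitochondrial enzyme, measured 148.19, 137.48 and 159.7 TPM in the NIL-D embryos (replicates 1 to 3) against 161.81, 170.99 and 142.94 TPM in the NIL-X embryos. The lines overlapped, and the log2 difference came to -0.09 ± 0.13 (SE, limma adjusted p 0.751, 95% interval -0.40 to 0.21). The other gene of this list, OsZS_08G0007800, matches an archaeal acetylating enzyme and was at means of 22.3 and 23.1 TPM in NIL-D and NIL-X.

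Succinic semialdehyde can instead be reduced to gamma-hydroxybutyrate by glyoxylate/succinic semialdehyde reductases. OsZS_01G0362300, annotated as the chloroplastic reductase 2, averaged 23.0 ± 2.76 TPM across NIL-D against 18.5 ± 1.96 TPM across NIL-X (SD, 3 samples each). Its lines overlapped as deposited. After median-ratio rescaling it was higher in NIL-D without overlap, with a log2 difference of 0.47 (limma adjusted p = 0.178). The other gene of this list was then lower without overlap, beside 20.6% of all tested genes without overlap in either direction. OsZS_02G0378000, annotated as reductase 1 and singled out after its values were seen, measured 2.74, 3.21 and 1.94 TPM in the NIL-D embryos (replicates 1 to 3) against 7.69, 5.96 and 7.86 TPM in the NIL-X embryos. All NIL-D values lay below those of NIL-X, a log2 difference of -1.18 ± 0.20 (SE) at a limma adjusted p of 0.0763, which missed the call.

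The lists for glutamate dehydrogenase, glutamate synthase and glutamine synthetase, enzymes that make or use glutamate, held 16 tested genes, some of them other enzymes caught by the annotation text. None was called, and 3 of the 16 had an unadjusted limma p-value below 0.05, beside 15.6% of all tested genes. Glutamate dehydrogenase 1 (OsZS_03G0568200) measured 56.99, 66.7 and 24.84 TPM in the NIL-D embryos (replicates 1 to 3) against values between 41.86 and 46.15 TPM in NIL-X. Its lowest and its highest value were again both from NIL-D, but the lowest was replicate 3, in which the transaminase was highest. Glutamate dehydrogenase 2 (OsZS_04G0419400), singled out after its values were seen, spanned 2.48 to 3.93 TPM across NIL-D against 6.39 to 9.15 TPM across NIL-X, a log2 difference of -1.04 ± 0.21 (SE) at a limma adjusted p of 0.109. NADH-dependent glutamate synthase 1 (OsZS_01G0458800) averaged 51.3 ± 13.0 TPM across NIL-D against 63.8 ± 18.9 TPM across NIL-X (SD, 3 samples each). The cytosolic glutamine synthetase 1-1 (OsZS_02G0533600) measured 77.18, 74.27 and 133.45 TPM in the NIL-D embryos (replicates 1 to 3) against values between 94.17 and 111.57 TPM in NIL-X, so that NIL-D replicate 3 was the highest sample here as in the transaminase.

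Calmodulin, the calcium sensor that binds many plant glutamate decarboxylases, was highly expressed in both lines. The 3 calmodulin genes overlapped between the lines as deposited, 1 of them was higher in NIL-D without overlap after median-ratio rescaling, and none was called, nor had any an unadjusted limma p-value below 0.05. Calmodulin-3 (OsZS_01G0164100) averaged 184 ± 8.71 TPM across NIL-D against 192 ± 2.26 TPM across NIL-X (SD, 3 samples each), with a log2 fold change of -0.06 (95% interval -0.33 to 0.20).

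Polyamine and diamine oxidation can lead to GABA by another route, through aminoaldehydes that betaine aldehyde dehydrogenases can oxidize. The genes listed for it were taken by annotation, and whether each oxidase acts in that route was not tested. This list held the single gene called, OsZS_04G0535900, annotated as polyamine oxidase 5. It measured 9.18, 11.55 and 10.3 TPM in the NIL-D embryos (replicates 1 to 3) against 29.64, 24.22 and 25.33 TPM in the NIL-X embryos. The lines lay well apart, and the gene fell by 1.27 on the log2 scale in NIL-D (SE 0.15, limma adjusted p = 0.0202). It was called without NIL-D replicate 3 (adjusted p = 0.0169) but not when any other sample was left out, with adjusted p-values from 0.0768 to 0.129 and a log2 fold change from -1.35 to -1.19. The call was also lost when genes of low expression were not filtered out before adjustment (adjusted p = 0.0913). It was likewise lost with the replicate number as a block in the limma fit (adjusted p = 0.116). Reads shared with the neighbouring polyamine oxidase 4 (OsZS_04G0535800) could be divided between these genes, which was not tested.

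Of the other 9 tested genes of this list, none was called and 2 had an unadjusted limma p-value below 0.05, beside 15.6% of all tested genes. The primary amine oxidase OsZS_04G0178900, singled out after its values were seen, spanned 32.33 to 41.85 TPM across NIL-D against 69.08 to 100.11 TPM across NIL-X, a log2 difference of -1.05 ± 0.18 (SE) at a limma adjusted p of 0.0788. The most highly expressed gene of the list, OsZS_04G0358900, whose protein hit is a bacterial primary amine oxidase, averaged 130 ± 25.2 TPM across NIL-D against 98.9 ± 9.79 TPM across NIL-X (SD, 3 samples each) and overlapped between the lines as deposited.

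All 5 tested GABA transport genes had log2 fold changes below 0, as deposited (69.9% of all tested genes) and after median-ratio rescaling (49.9%). None was called, and 3 had an unadjusted limma p-value below 0.05, beside 15.6% of all tested genes. The amino-acid permease BAT1 homolog OsZS_04G0324800, the most highly expressed of them, averaged 3.32 ± 0.45 TPM across NIL-D against 5.67 ± 3.38 TPM across NIL-X (SD, 3 samples each) and overlapped between the lines. GABA transporter 1 (OsZS_01G0611800), singled out after its values were seen, spanned 0.21 to 0.43 TPM across NIL-D against 1.07 to 1.28 TPM across NIL-X, a log2 difference of -0.70 ± 0.18 (SE) at a limma adjusted p of 0.182. With a pseudocount of 0.1 its log2 difference was -1.56 ± 0.44 (SE), again not called (adjusted p = 0.21). MSTRG.3000, a new gene of 434 bp with a BAT1 homolog as its hit that was also singled out after its values were seen, is listed at 0 TPM in each NIL-D library but at 1.97, 0.3 and 2.8 TPM in NIL-X replicates 1 to 3. OsZS_01G0393300, likewise singled out late, has the same closest Swiss-Prot protein. It spanned 0.39 to 0.87 TPM across NIL-D against 1.32 to 2.81 TPM across NIL-X. Both are among the 3 genes with an unadjusted limma p-value below 0.05. Whether they are parts of the same gene or share reads was not tested.

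Aluminum-activated malate transporters, of which a wheat member is known to be gated by GABA, had 2 tested genes of 10 and none called. Of these 2, 1 had an unadjusted limma p-value below 0.05, beside 15.6% of all tested genes. OsZS_06G0147100, whose closest Swiss-Prot protein is ALMT9 of Arabidopsis thaliana, measured 9.91, 8.01 and 19.43 TPM in the NIL-D embryos (replicates 1 to 3) against 33.29, 18.56 and 35.83 TPM in the NIL-X embryos. NIL-D replicate 3 lay just above the lowest NIL-X value, and the log2 difference came to -1.21 ± 0.37 (SE, limma adjusted p 0.226).

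NIL-D replicate 3 decided several of these calls. Without it, 6 of the 40 list genes were called, all lower in NIL-D, and 0 of the GABA shunt genes. Of all 21546 genes tested in that fit, 611 (2.84%) were called, 239 higher and 372 lower in NIL-D. The 6 were polyamine oxidases 4 and 5, the primary amine oxidase OsZS_04G0178900, glutamate dehydrogenase 2, reductase 1 and OsZS_06G0147100. Their log2 fold changes then ran from -1.55 to -1.03, with limma adjusted p-values from 0.0169 to 0.046. Polyamine oxidase 3 (OsZS_04G0494300) and calmodulin-2 (OsZS_01G0716600), singled out after their values were seen, passed the p-value without that sample but missed the fold limit. Calmodulin-2 had a positive value here, with a log2 difference of 0.73 (95% interval 0.48 to 0.98, limma adjusted p = 0.0253) against 0.42 with all 6 samples, while polyamine oxidase 3 was at -0.92 (adjusted p = 0.0239).

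**Figure D4:**
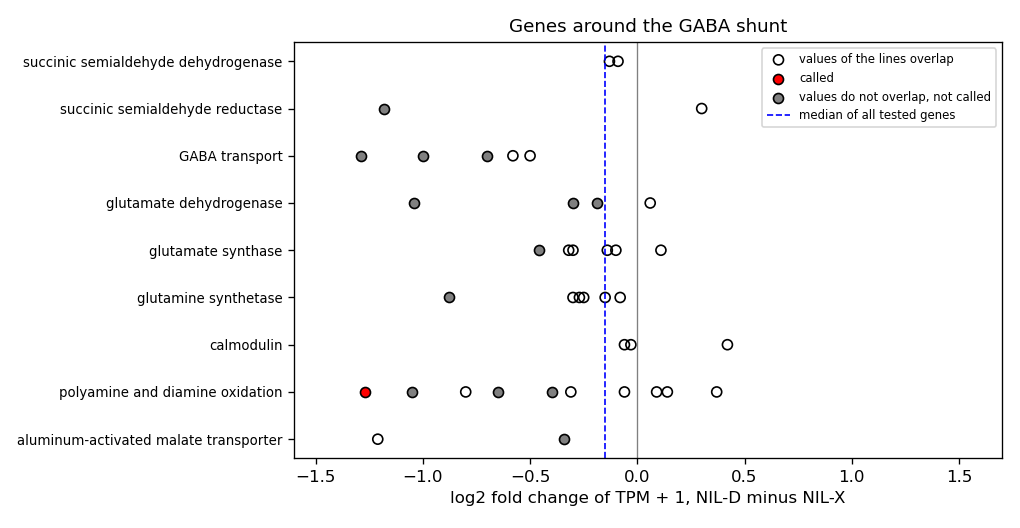
Log2 fold change of TPM + 1 (NIL-D minus NIL-X, horizontal axis) for the 40 tested genes of the 9 lists around the GABA shunt, 1 point per gene. Filled points are the 14 genes with no overlap of the lines as deposited (13 after median-ratio rescaling, 4 of them higher in NIL-D), the red point is the called gene OsZS_04G0535900, and the dashed line is the median of all tested genes at -0.15.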

How the data were processed

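RNA-seq of 6 rice embryo samples, 3 per line, was taken from the deposited gene table. According to the methods of the study, reads were trimmed with SeqPrep and Sickle, assembled with Cufflinks, mapped with TopHat to ZS97RS3 (RIGW3.0) and quantified with RSEM. The submitters' processing notes list Bowtie 0.12.2 and the mouse build mm8 instead. The authors deposited TPM per gene and sample, the mean TPM of each line, gene lengths and annotation. Each sample sums to the same total TPM. The study states a minimum of clean data per sample, but read counts per gene are not given, so counting error was not estimated. A count test such as the one named in the methods was not used on TPM.

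Lines were compared with limma 3.58.1 in R 4.3.3 (eBayes with trend) on log2(TPM + 1), two-sided, for the 21500 genes with a mean of at least 0.5 TPM, with Benjamini-Hochberg adjustment over all of them. The test was checked on simulated data. Python 3.11.15, pandas 2.3.3 and matplotlib 3.10.9 were used for the rest. Named genes were all tested members, the most highly expressed and every called gene of each list, and the 3 closest patterns; genes singled out later are marked as such. The members and lists were chosen with earlier results of these data known. Alternatives were a pseudocount of 0.1, no filter, a minimum of 5 TPM, eBayes without trend, quantile normalization, median-ratio rescaling, a replicate block, the adjusted p-value alone, and each sample left out. P-values measure the spread among 3 field samples per line. Chromosomes were read from the gene names, and no sequences were used here.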

Additional observations from a re-analysis of the deposited data

How the results depend on the processing

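In none of the 14 alternatives was a glutamate decarboxylase or GABA transaminase gene called by limma. Over all tested genes, 138 calls became 32 without a filter, 57 at a minimum of 5 TPM, 43 with the replicate block, and between 37 (without NIL-X replicate 1) and 611 (without NIL-D replicate 3) with a sample left out. The count of called list genes went from 1 to 0 without a filter and with the replicate block, and ran from 0 to 6 with a sample left out. Calls over all genes were 57 higher and 81 lower in NIL-D as deposited, 75 and 61 after median-ratio rescaling, and 72 and 54 after quantile normalization, which moved the median log2 fold change from -0.151 to 0.000 and -0.008.

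Median-ratio rescaling turned the sign of the log2 fold change to 0.046 in OsZS_04G0485800, 0.093 in OsZS_08G0385400, 0.085 in OsZS_02G0072000, 0.032 in OsZS_02G0533600 and 0.116 in OsZS_01G0164100. With a sample left out, the log2 fold change ran from -0.57 to 0.22 in OsZS_04G0485800, from -0.25 to 0.01 in OsZS_08G0385400, from -0.21 to 0.49 in OsZS_03G0568200 and from -0.42 to 0.003 in OsZS_02G0533600. The other 13 of the 19 genes followed through the alternatives kept their sign throughout. OsZS_08G0007800, named above but not among the 19, went from -0.13 to 0.22 without NIL-D replicate 3.

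The replicate numbers are shared by the lines, but the labels do not say that a number marks a plot. Deviations from the mean of each line had correlations across genes of 0.0164, 0.202 and 0.199 between equally numbered samples. Between unequally numbered samples they ran from -0.235 to 0.0593. NIL-D replicates 2 and 3 correlated best with the NIL-X sample of their own number, and NIL-D replicate 1 with NIL-X replicate 2 (0.0593). These values did not settle whether the numbers pair the samples, and the block was kept as an alternative. With the block, OsZS_04G0535900 had an adjusted p-value of 0.116, and no GABA shunt gene changed its call.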
